A study of Ovis aries with 67 samples.

Results

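Perirenal adipose tissue (PER), the fat around the kidney, was compared with subcutaneous adipose tissue (SUB) of the same animal, taken over the back muscle. All sheep with a library of each depot were included, which gave 62 of the 67 libraries of the series, 31 PER and 31 SUB from 31 sheep. The difference between depots was tested within sheep, over all diets together, so that it is a difference between depots and not an effect of nutrition. Properties of the libraries that differ between the depots remain in it. The sheep were crossbred Texel, 2.5 years old, 14 males and 17 females. During the last 6 weeks of gestation the dams had received 100% of their energy and protein needs (NORM, 8 sheep), 50% of both (LOW, 12 sheep), or 150% of the energy and 110% of the protein (HIGH, 11 sheep). From day 3 to month 6 the lambs were fed a conventional (CONV, 16 sheep) or a high-carbohydrate-high-fat (HCHF, 15 sheep) diet. All animals, whatever their early diet, were then kept for 2 years on the same low-fat diet. The lambs were born as twins, and the labels do not tell which of them shared a dam. Sheep are numbered here from 1 to 31 in the order of their label numbers.

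Subcutaneous fat lies under the skin and takes up much of the surplus lipid that is stored as triacylglycerol. Perirenal fat is a visceral depot, which in newborn lambs is rich in brown adipocytes that carry out heat production and is gradually replaced by white fat. Adipocytes of all depots build triacylglycerol from glycerol phosphate and fatty acids, release fatty acids by lipolysis, and sit in a matrix of collagens and collagen-binding proteins made by fibroblasts and adipocyte precursors. Because whole tissue was sequenced, fewer cells of a type and less RNA per cell cannot be told apart in any value given here.

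Gene counts per library ranged from 620406 to 10478705 in PER and from 662475 to 13232721 in SUB. A library under 2000000 counts was found in 5 pairs, namely the PER libraries of sheep 3, 6 and 26 and the SUB libraries of sheep 7 and 9, and 26 pairs were left without them. Shares of reads are given here out of the reads in genes, in no gene or ambiguous between genes, without unaligned and multi-mapped reads. In those 5 libraries 93.1 to 97.6% of the reads fell in no gene. Among the other 26 pairs the highest shares were 87.5% in SUB of sheep 25, which had 2035120 counts, and 87.2% in PER of sheep 31. PER libraries had a lower share of reads counted in genes than SUB libraries, 25.5% ± 9.39 against 34.8% ± 11.4 (SD, n = 31), with the lower share in PER in 25 of 31 pairs (paired permutation test, two-sided, p = 0.0027, adjusted over 3 tests p = 0.0081). The difference was -8.79 percentage points in the 26 pairs, lower in PER in 22 (permutation p = 0.00038). For the genes with a symbol, values without these pairs or with this share in the model are given where the call changed, and for some other genes. The 10 most abundant genes held 13.5% of the counts in PER and 15.1% in SUB, which did not pass the test over all pairs (permutation p = 0.174) but did in the 26 pairs, in which the share was lower in PER in 23 (11.98 against 15.01%, permutation p = 8e-05). The number of genes with at least 1 cpm (counts scaled to the library size) was on average 15537 in PER and 14453 in SUB (permutation p = 0.158), and 14764 and 13884 in the 26 pairs (permutation p = 0.0124).

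**Figure D1:**
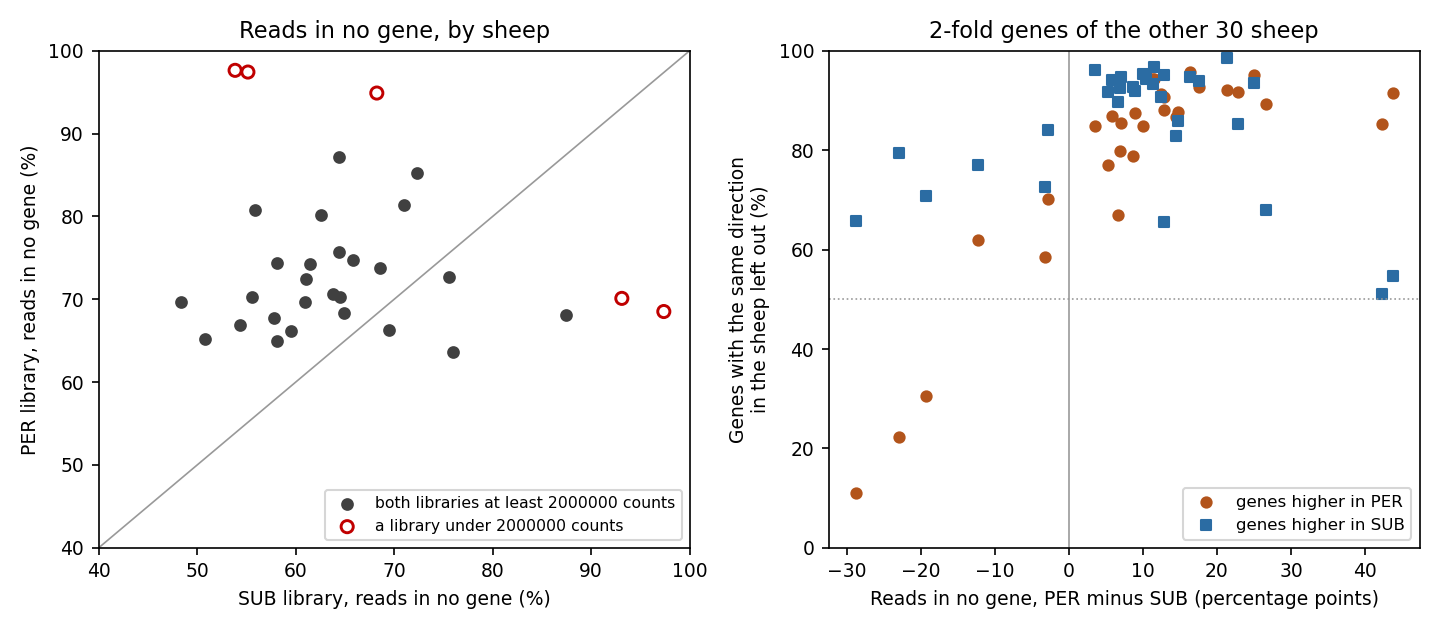
Left, the share of reads outside genes in the PER library (y axis, %) against the SUB library (x axis, %) of each sheep, with the line of equal shares and the 5 pairs with a library under 2000000 counts as open circles. Right, for each sheep left out, the share of genes (y axis, %) called with at least 2-fold difference in the other sheep that had the same direction in it, against its own PER minus SUB difference in reads in no gene (x axis, percentage points). In the 3 sheep at the far left the genes higher in PER kept their direction in 10.98 to 30.5%.

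The depots were separated on the third principal component of the log2 cpm of 15409 genes, which held 7.13% of the variance. On it the PER library lay above the SUB library of the same sheep in 29 of 31 pairs. Sheep 15 and 25 were the exceptions among the 31, and the PER library of sheep 25 had the lowest value of all 62. In a separate analysis of the 26 pairs, whose axes are not the same, PER lay above SUB in 24 pairs on the second component (11.3% of the variance) and in 25 on the third (9.56%). The first component, with 45.0% of the variance, placed the 5 libraries under 2000000 counts at its end. Over all 62 libraries it correlated with the share of reads in no gene at r = 0.916. In the analysis of the 26 pairs the first component held 30.4% of the variance, and this r was 0.891. The median over genes of the standard deviation between sheep was 0.59 in PER and 0.65 in SUB on the log2 scale, and 0.43 and 0.53 in the 26 pairs, so that sheep differed more in SUB than in PER on this measure, which was not tested.

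**Figure D2:**
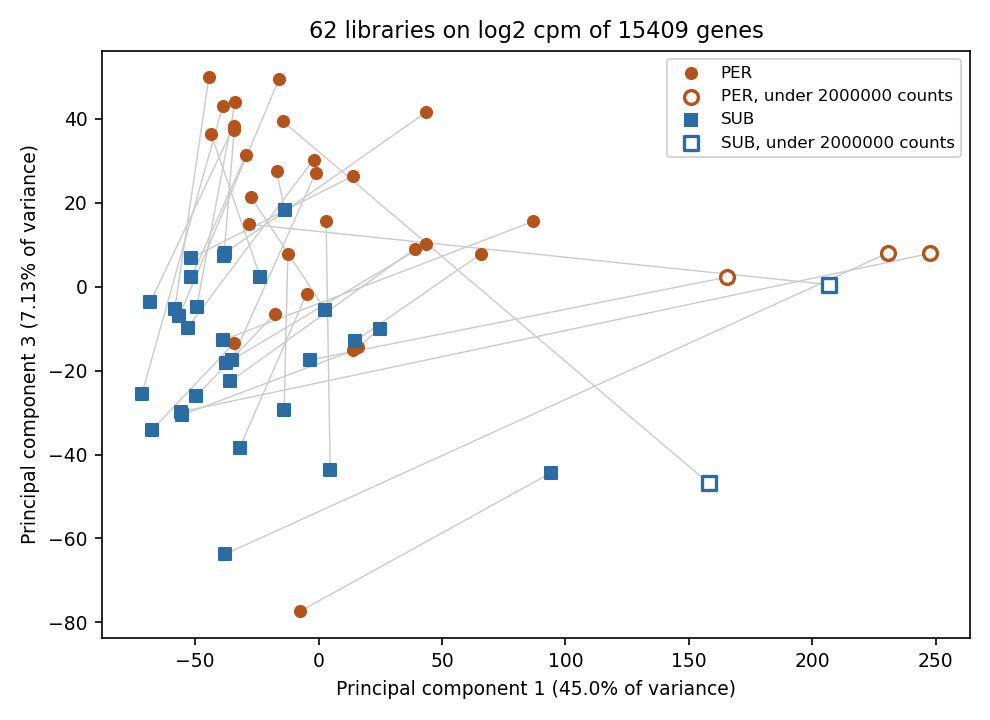
Principal components 1 (x axis, 45.0% of the variance) and 3 (y axis, 7.13%) of 62 libraries, PER as circles and SUB as squares, with a grey line between the libraries of each sheep and open symbols for libraries under 2000000 counts. PER lay above SUB on component 3 in 29 of 31 pairs, and the open symbols lay furthest right.

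Of 15409 genes tested, 4397 (28.5%) differed between the depots (edgeR quasi-likelihood test with the sheep as a block, Benjamini-Hochberg adjusted p under 0.05). Of these, 2508 (16.3%) were higher in PER and 1889 (12.3%) were higher in SUB. Most differences were small. The median log2 fold change, PER minus SUB, was 0.65 among the genes higher in PER and -0.49 among those higher in SUB, with a median standard error of 0.15. At least a 2-fold difference was found for 931 genes (6.04%), of which 638 (4.14%) were higher in PER and 293 (1.90%) in SUB. At least 4-fold, the counts were 69 in PER and 54 in SUB, and at least 16-fold 4 and 6. In the 26 pairs 6452 genes (41.9%) were called, 3378 higher in PER (21.9%) and 3074 in SUB (19.9%), and 4296 of the 4397 genes were among them.

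The excess of genes higher in PER lay among genes of low level. Of the genes with a median under 1 cpm in the depot with the higher median, 76 were at least 2-fold higher in PER and 4 in SUB. At 1 to 10 cpm 450 were at least 2-fold higher in PER and 139 in SUB. At 10 to 100 cpm the numbers were 91 and 96, and at 100 cpm or more 21 and 54. The genes at least 2-fold higher in PER together took 5.26% of the counts in PER and 2.43% in SUB. Those at least 2-fold higher in SUB took 1.496% in PER and 3.78% in SUB.

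**Figure D3:**
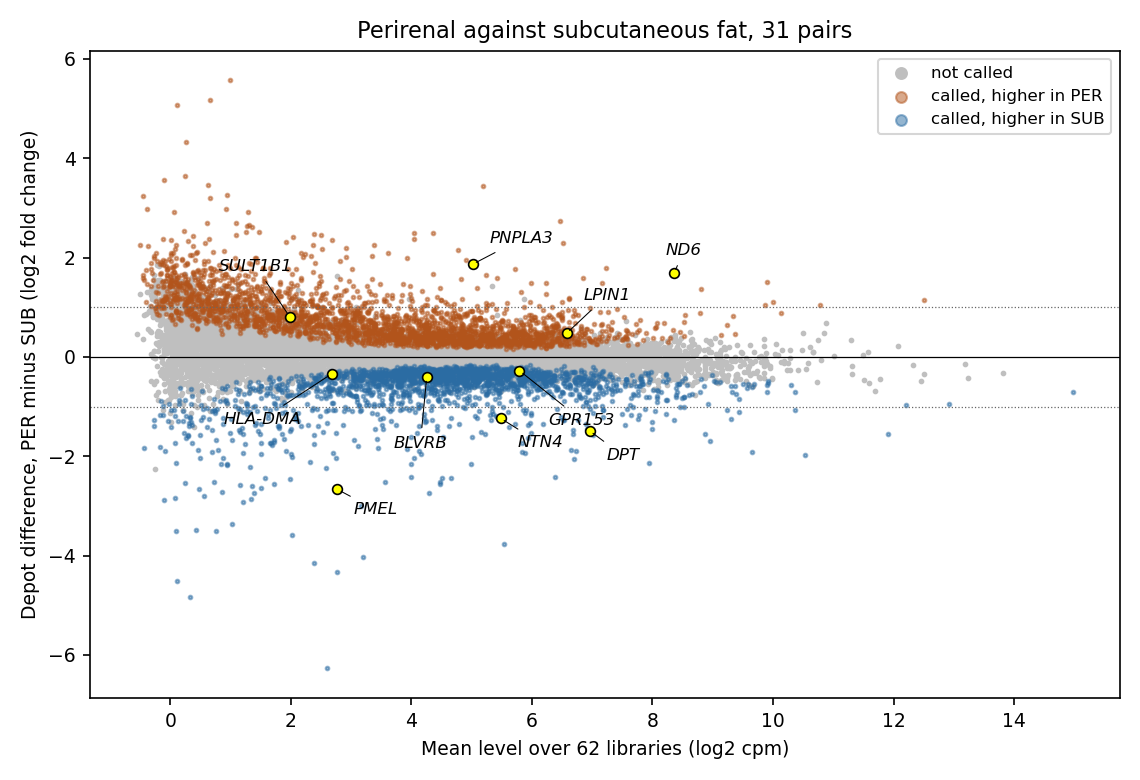
Depot difference of 15409 genes, PER minus SUB (y axis, log2 fold change), against the mean level over 62 libraries (x axis, log2 cpm), with dotted lines at 2-fold. The 2508 genes called higher in PER are orange, the 1889 called higher in SUB blue, those not called grey, and the 10 called genes with a symbol are marked in yellow.

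The share of reads outside genes moved with this excess. When it was added to the model as a covariate, 234 genes were at least 2-fold higher in PER and 396 in SUB, in place of 638 and 293. The percentage of 2-fold calls that were higher in PER thus went from 68.5 to 37.1%. Since reads outside genes were themselves more frequent in PER in most pairs, this fit cannot separate their share from the depot. Without pairs under 2000000 counts the percentage was 67.6% (678 in PER, 325 in SUB). Without pairs over 80% of reads in no gene it was 62.3% (550 in PER, 333 in SUB). At 1 to 10 cpm the numbers with the covariate were 146 in PER and 223 in SUB, and under 1 cpm 5 and 49. Under 1 cpm they were 117 and 15 in the 26 pairs and 53 and 22 in the 20 pairs. Of the 638 genes, 454 were still called and 210 were still at least 2-fold higher in PER with the covariate, and of the 293 genes higher in SUB 288 were still called and 247 still 2-fold. None of the 931 changed sign with it, 0 in each direction. Without the pairs in which a library had over 80% of its reads in no gene, a choice made after seeing the data that left 20 pairs and 5941 calls (38.6%), 608 of the 638 and 293 of the 293 were still called in the same direction. Each sheep was also left out in turn, and the genes called at least 2-fold in the other sheep were looked up in it. The same direction was found for 62.8 to 95.4% of them in 28 sheep. In the 3 sheep whose SUB library exceeded the PER library by over 15 percentage points in reads in no gene, namely sheep 7, 9 and 25, it was found for 24.2, 38.1 and 41.9%. In these 3 sheep the genes higher in SUB kept their direction in 65.7 to 79.5%, and the genes higher in PER in 10.98 to 30.5%. The opposite was seen in sheep 3 and 6, whose PER library exceeded the SUB library by 42.3 and 43.8 percentage points. There the genes higher in SUB kept their direction in 51.1 and 54.7%, and the genes higher in PER in 85.4 and 91.4%. Over the 28 sheep the range for genes higher in SUB was 51.1 to 98.6%.

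The libraries of the depots hardly ever separated completely. All SUB libraries lay above all PER libraries for 1 gene (0.00649%), ENSOARG00000020376, and all PER libraries above all SUB libraries for 0 genes (0%). The direction was the same in all 31 pairs for 16 genes higher in SUB (0.104%) and 6 higher in PER (0.0389%). The next values are those of the identifiers with the smallest adjusted p in each direction among genes that differed at least 2-fold and have no symbol in the sources used here. ENSOARG00000020376 had a lowest, median and highest level of 0, 0.3299 and 15.3 cpm in PER and 17.1, 46.8 and 80.7 cpm in SUB, and 8 PER libraries held 0 counts of it. Its log2 difference was -6.27 ± 0.40 (edgeR adjusted p = 8.13e-14) and -6.90 in the 26 pairs, in which the highest PER level was 4.65 cpm and the lowest SUB level 29.4 cpm. ENSOARG00000012029 reached 3.19, 12.98 and 20.3 cpm in PER and 16.3, 38.9 and 71.2 cpm in SUB, with a difference of -1.46 ± 0.10 (edgeR adjusted p = 8.49e-13). It was higher in SUB in 31 of 31 pairs, although the ranges of the depots overlapped. In the other direction, ENSOARG00000017171 had 2.85, 12.6 and 29.4 cpm in PER and 0.465, 2.09 and 5.23 cpm in SUB, a difference of 2.47 ± 0.14 (edgeR adjusted p = 2.76e-15) with PER higher in 31 of 31 pairs. ENSOARG00000004787 had 24.5, 45.8 and 149 cpm in PER and 1.76, 8.12 and 52.8 cpm in SUB, a difference of 2.49 ± 0.19 (edgeR adjusted p = 1.54e-11) with PER higher in 30 of 31 pairs. With the covariate for reads in no gene, these differences were -6.80 for ENSOARG00000020376, -1.41 for ENSOARG00000012029, 2.42 for ENSOARG00000017171 and 2.34 for ENSOARG00000004787, so that all 4 kept their direction.

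Symbols were known for 34 genes, which the study had listed for a difference between males and females in SUB of these same sheep. They are thus no sample of the genes that differ between depots. Of the 34, 10 differed between the depots (29.4%, against 28.5% of all genes), 4 higher in PER (PNPLA3, ND6, SULT1B1 and LPIN1) and 6 higher in SUB (NTN4, DPT, PMEL, GPR153, BLVRB and HLA-DMA). At least 2-fold differences were found for 5 of the 34, against 6.04% of all genes. The median log2 difference of the 34 genes was -0.04, against 0.04 of all genes. In the 26 pairs 16 of the 34 were called, 6 higher in PER and 10 in SUB, against 41.9% of all genes. In the 20 pairs 13 were called, against 38.6% of all genes, and with the covariate 13, against 33.1%. The 10 genes called in all pairs were called in the same direction in the 26 and in the 20 pairs, and 7 of them with the covariate.

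Of the 10 genes of metabolism, 4 were higher in PER, 1 was higher in SUB and 5 were not called, so that 5 of 10 were called against 28.5% of all genes. The number called was 7 in the 26 pairs, 6 in the 20 pairs and 3 with the covariate, against 41.9, 38.6 and 33.1% of all genes. PNPLA3 (ENSOARG00000019246) encodes a lipase and acyltransferase of the lipid droplet whose expression follows lipogenic signals. Its lowest, median and highest levels were 3.31, 55.9 and 383 cpm in PER and 0.464, 25.2 and 106 cpm in SUB. PNPLA3 was higher in PER in 31 of 31 pairs, while the ranges of the depots overlapped widely. The log2 difference of PNPLA3 was 1.87 ± 0.20, or 3.64-fold (edgeR adjusted p = 1.01e-08), and 1.99 ± 0.22 in the 26 pairs. LPIN1 (ENSOARG00000016144), the phosphatidate phosphatase that makes the diacylglycerol from which triacylglycerol is built, had 24.99, 101 and 1642 cpm in PER and 40.7, 65.5 and 219 cpm in SUB. LPIN1 was higher in PER in 24 of 31 pairs by 0.47 ± 0.16 (edgeR adjusted p = 0.0265), and its highest PER level was that of sheep 22. The LPIN1 difference was 0.51 ± 0.18 in the 26 pairs. The call of LPIN1 was lost without a filter on low counts and with a filter at 1 cpm in at least 4 libraries.

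ND6 (ENSOARG00000000033) is a subunit of complex I of the respiratory chain and is encoded by the mitochondrial genome. Its lowest, median and highest levels were 76.5, 328 and 61061 cpm in PER and 45.3, 113 and 12056 cpm in SUB. The highest ND6 levels were those of libraries of low depth, 61061 cpm in PER of sheep 6, 56176 in PER of sheep 3, 26772 in PER of sheep 26 and 12056 in SUB of sheep 7. ND6 was higher in PER in 24 of 31 pairs, by 1.68 ± 0.57 (edgeR adjusted p = 0.0261), and by 1.53 ± 0.36 in the 26 pairs, in which the levels did not exceed 4507 cpm. With the share of reads outside genes as a covariate the ND6 difference was 0.49 and the call was lost (adjusted p = 0.0638). SULT1B1 (ENSOARG00000009915), a cytosolic sulfotransferase, had 1.51, 5.26 and 18.1 cpm in PER and 0.149, 2.26 and 19.7 cpm in SUB and was higher in PER in 25 pairs, by 0.81 ± 0.24 (edgeR adjusted p = 0.0103). This call was also lost with the covariate (SULT1B1 difference 0.54, adjusted p = 0.0633). BLVRB (ENSOARG00000006640), a biliverdin and flavin reductase, was higher in SUB in 26 pairs, with medians of 16.2 cpm in PER and 21.7 in SUB, a difference of -0.41 ± 0.13 (edgeR adjusted p = 0.0157) and, with the covariate, -0.12 (adjusted p = 0.260). The BLVRB call was also lost without a filter on low counts, and that of SULT1B1 with limma-voom.

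Among the other metabolic genes, SLC2A12 (ENSOARG00000014685), a glucose transporter of the plasma membrane, had a difference of 0.41 ± 0.16 that did not pass (edgeR adjusted p = 0.0554) and of 0.48 ± 0.15 that did in the 26 pairs (adjusted p = 0.0123). With the covariate SLC2A12 also passed, at 0.58 (adjusted p = 0.00577). BPGM, which makes and removes bisphosphoglycerate beside glycolysis, had -0.33 ± 0.14 (adjusted p = 0.0685) and, in the 26 pairs, -0.46 ± 0.13 (adjusted p = 0.00534). BPGM did not pass in the 20 pairs, at -0.35 (adjusted p = 0.0523), or with the covariate, at -0.28 (adjusted p = 0.133). CYP27A1, the mitochondrial sterol hydroxylase, was at -0.46 ± 0.19 (adjusted p = 0.0649), with the lower level in PER in 24 pairs but the highest PER level, 600.2 cpm in sheep 25, above every SUB level. GM2A, an activator of ganglioside breakdown, and GALNT13, an enzyme of mucin-type glycosylation, had differences of -0.18 ± 0.22 and 0.06 ± 0.27 and were not called in all pairs or in the 26, although limma-voom called GALNT13 in the other direction at -0.41.

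Of the 9 genes of matrix, secreted and guidance proteins, NTN4 and DPT were higher in SUB and 7 were not called. These 2 of 9 (22.2%) stand against 28.5% of all genes. The number called was 4 in the 26 pairs, 3 in the 20 pairs and 4 with the covariate, against 41.9, 38.6 and 33.1% of all genes. NTN4 (ENSOARG00000011846) encodes netrin-4, a secreted laminin-related protein of basement membranes. NTN4 had 9.82, 33.9 and 60.4 cpm in PER and 23.6, 79.00 and 136 cpm in SUB, and was higher in SUB in 30 of 31 pairs. The exception was sheep 20, with 39.6 cpm of NTN4 in PER and 35.8 in SUB. The log2 difference of NTN4 was -1.24 ± 0.11, or 2.36-fold (edgeR adjusted p = 6.55e-11), -1.28 ± 0.11 in the 26 pairs and -1.16 with the covariate. DPT (ENSOARG00000009230), dermatopontin, a small matrix protein that binds collagen fibrils and is made by fibroblasts and adipocyte precursors, had 6.36, 77.5 and 164 cpm in PER and 19.7, 227 and 1220.0 cpm in SUB. The DPT levels overlapped, with SUB higher in 25 pairs. The DPT difference was -1.49 ± 0.33 (edgeR adjusted p = 8.18e-04), -1.40 ± 0.24 in the 26 pairs and -0.95 with the covariate (adjusted p = 0.00119). The lowest DPT level in PER was that of sheep 6 and the lowest in SUB, 19.7 cpm, that of sheep 9, both libraries of low depth.

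SPARC, a collagen-binding glycoprotein that is abundant in adipose tissue, had 224, 3034 and 7006 cpm in PER and 617, 5234 and 13385 cpm in SUB. Its difference of -0.53 ± 0.25 did not pass (edgeR adjusted p = 0.112), but that of -0.45 ± 0.14 in the 26 pairs did (adjusted p = 0.0110). SPARC did not pass in the 20 pairs, at -0.28 (adjusted p = 0.108), or with the covariate, at -0.13 (adjusted p = 0.613). FGF1, a growth factor needed for the remodelling of adipose tissue, had 1.797, 11.4 and 75.01 cpm in PER and 0, 17.5 and 99.3 cpm in SUB, a difference of -0.57 ± 0.25 (adjusted p = 0.0812), and -0.57 ± 0.21 in the 26 pairs (adjusted p = 0.0325). FGF1 did not pass in the 20 pairs, at -0.37 (adjusted p = 0.180), or with the covariate, at -0.27 (adjusted p = 0.394). ITIH5, a hyaluronan-binding secreted protein, was at -0.37 ± 0.24 (adjusted p = 0.240). COL22A1, a collagen of tissue junctions, varied widely among the sheep, from 0.134 to 158 cpm in PER and from 0.188 to 197 in SUB, with the highest levels in the low-depth libraries of sheep 6 and 9. In the 26 pairs COL22A1 did not exceed 20.1 cpm in PER and 58.3 in SUB. Its difference was -0.86 ± 0.72 in all pairs (adjusted p = 0.384), -1.11 in the 26 pairs (adjusted p = 0.0856), -1.74 in the 20 pairs (adjusted p = 0.00395) and -1.99 with the covariate (adjusted p = 3.49e-04). PLXDC1 and SLITRK5, transmembrane proteins, and SLIT1, a ligand of axon guidance, had differences of 0.36 ± 0.17, 0.54 ± 0.24 and 0.03 ± 0.59 and were not called in all pairs or in the 26. With the covariate SLIT1 was called in the other direction, at -0.93 (adjusted p = 0.0104).

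**Figure D4:**
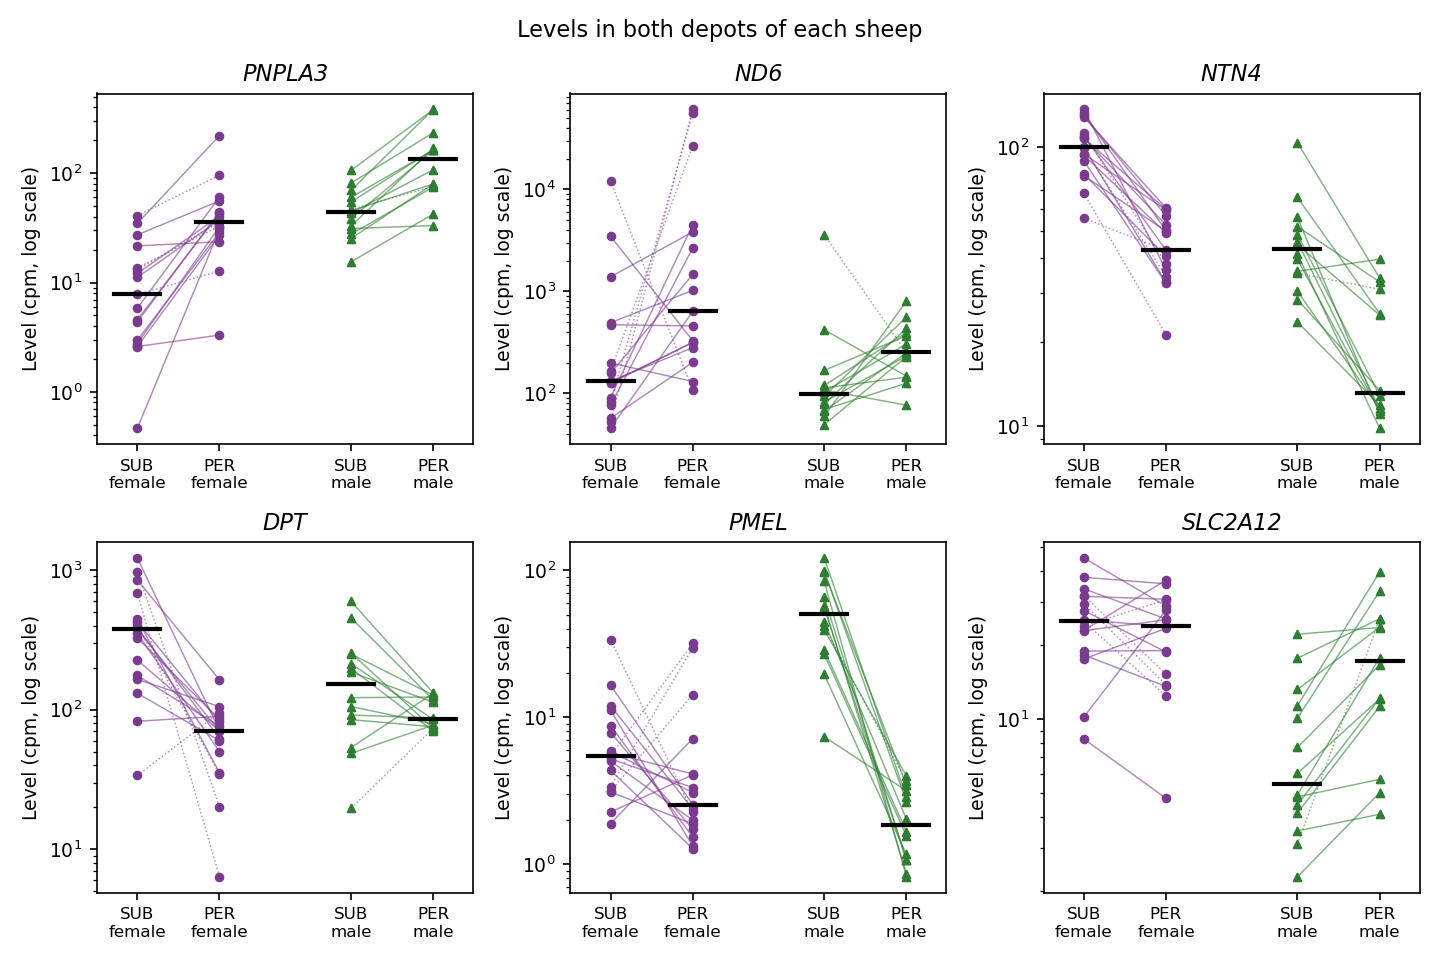
Levels (y axis, cpm on a log scale) of PNPLA3, ND6, NTN4, DPT, PMEL and SLC2A12 in the SUB and PER library of each sheep, 17 females as circles and 14 males as triangles, with a line between the libraries of each sheep (dotted for the 5 pairs with a library under 2000000 counts) and black bars at the medians. PNPLA3 was higher in PER in 31 of 31 sheep, NTN4 higher in SUB in 30, and PMEL higher in SUB in all 14 males and in 12 of 17 females.

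Of the 6 genes of transcription and signalling, 1 was higher in SUB and 5 were not called (16.7% called, against 28.5% of all genes). Of these 6, 2 were called in the 26 pairs, 2 in the 20 pairs and 3 with the covariate, against 41.9, 38.6 and 33.1% of all genes. GPR153 (ENSOARG00000012693), an orphan G protein-coupled receptor, had a small difference that was shared by nearly all sheep. It had 28.3, 51.3 and 75.4 cpm in PER and 27.3, 65.3 and 89.8 cpm in SUB, was higher in SUB in 28 of 31 pairs and differed by -0.28 ± 0.07 (edgeR adjusted p = 0.00483), a call that was lost without a filter on low counts. With the covariate the GPR153 difference was -0.17 (adjusted p = 0.0304). CITED1, a transcriptional coregulator, had medians of 0.888 cpm in PER and 0.834 in SUB, close to the level at which genes were filtered. Its difference was -0.71 ± 0.37 (adjusted p = 0.151) and passed in the 26 pairs at -0.89 ± 0.29 (adjusted p = 0.0133). With the covariate CITED1 also passed, at -1.10 (adjusted p = 0.00917). KCNK3, a background potassium channel, was at 0.70 ± 0.31 (adjusted p = 0.0908). AXIN2, a target and inhibitor of Wnt signalling, was at -0.34 ± 0.35 in all pairs and at -1.01 with the covariate (adjusted p = 7.28e-04). HNF4A, a nuclear receptor, and VGLL3, a cofactor of TEAD transcription factors, had differences of -0.05 ± 0.20 and -0.04 ± 0.14, with PER higher in 15 and 14 of 31 pairs.

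Of the remaining 9 named genes, 2 were higher in SUB and 7 were not called (22.2% called, against 28.5% of all genes). Of these 9, 3 were called in the 26 pairs, 2 in the 20 pairs and 3 with the covariate, against 41.9, 38.6 and 33.1% of all genes. PMEL (ENSOARG00000010746) encodes the protein that forms the fibrils of melanosomes in pigment cells. PMEL had 0.815, 2.37 and 31.8 cpm in PER and 1.88, 11.9 and 122 cpm in SUB, and was higher in SUB in 26 of 31 pairs, with a difference of -2.67 ± 0.49, or 6.36-fold (edgeR adjusted p = 9.23e-05). The highest PMEL levels in PER, 31.8, 29.8 and 14.2 cpm, were those of the 3 PER libraries of low depth, and in the 26 pairs no PER library exceeded 7.13 cpm. The PMEL difference was -3.13 ± 0.42 in the 26 pairs and -3.12 with the covariate. HLA-DMA (ENSOARG00000007972), which loads peptides onto class II histocompatibility molecules, was higher in SUB in 24 pairs, with medians of 5.44 cpm in PER and 6.58 in SUB and a difference of -0.34 ± 0.11 (edgeR adjusted p = 0.0177). BCAS1 was at 0.97 ± 0.46 (adjusted p = 0.105) and passed in the 26 pairs (difference 0.81 ± 0.32, adjusted p = 0.0396), but not in the 20 pairs, at 0.71 (adjusted p = 0.0784), or with the covariate, at 0.07 (adjusted p = 0.815). SPTB, a spectrin, SLC22A18, an organic cation transporter, HYDIN, a protein of motile cilia, CLGN, a chaperone of the testis, TDRD5, a germ cell protein, and ERICH4 had differences from -0.04 for ERICH4 to 0.84 for HYDIN and were not called in all pairs or in the 26. With the covariate TDRD5 was called as higher in SUB, at -0.91 (adjusted p = 0.0132). The highest PER level of 9 of the 34 genes was that of sheep 6 and the highest SUB level of 10 that of sheep 7, libraries with 97.6 and 97.4% of their reads in no gene.

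Whether the depot difference was the same in males and females was tested as an interaction of depot and sex within a paired model that also held the interactions with nutrition. In edgeR 6 of 15409 genes (0.0389%) had an adjusted p under 0.05, 3 with a PER minus SUB difference that was more positive in males and 3 with one that was more negative, and 1077 genes were at an unadjusted p under 0.05. In the 26 pairs 12 genes passed (0.0779%), of which 3 were shared with the 6, and in the 20 pairs 0 passed, with 875 at an unadjusted p under 0.05. Most of the sheep left out of the 20 pairs were females. PMEL and SLC2A12 were the called genes with a symbol. Since both were listed for their difference between the sexes in these SUB libraries, their interaction is not independent of that choice. The levels of PMEL in males were 7.36, 50.2 and 122 cpm in SUB and 0.815, 1.84 and 3.97 cpm in PER, and in females 1.88, 5.45 and 33.8 cpm in SUB and 1.27, 2.53 and 31.8 cpm in PER. The PMEL ranges of SUB and PER did not overlap in males but did in females. The PMEL depot difference was -4.54 ± 0.50 in males, with SUB higher in 14 of 14, and -0.83 ± 0.46 in females, with SUB higher in 12 of 17. The 5 females with PMEL higher in PER were sheep 3, 6, 13, 26 and 31. Their PER libraries had 85.2 to 97.6% of reads in no gene, while no male PER library exceeded 81.4%. What part this share has in the contrast between the sexes was not tested. The PMEL interaction, male minus female, was -3.71 ± 0.67 (edgeR adjusted p = 0.0215). It was -3.12 in the 26 pairs (adjusted p = 0.00983), which still held sheep 13 and 31.

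SLC2A12 moved the other way. In males it had 2.29, 5.48 and 22.2 cpm in SUB and 4.11, 17.3 and 39.7 cpm in PER, and in females 8.33, 25.04 and 45.3 cpm in SUB and 4.78, 23.9 and 36.8 cpm in PER. The SLC2A12 depot difference was 1.14 ± 0.19 in males, with PER higher in 14 of 14, and -0.14 ± 0.17 in females, with PER higher in 6 of 17. The interaction was 1.29 ± 0.26 (edgeR adjusted p = 0.0474), but did not pass in the 26 pairs, where it was 1.05 (adjusted p = 0.124). Over the 34 named genes, 18 (52.9%) had an interaction at an unadjusted p under 0.05, against 6.99% of all genes, a count that is not independent of the list, which was made from the same SUB libraries. In 17 of the 34 the difference had opposite signs in the sexes, a count that is also not independent of the list. The share over all genes is not given here, so that this count cannot be set against it. Examples that did not pass the adjustment were FGF1, with -1.30 ± 0.28 in females and 0.41 ± 0.32 in males (adjusted p = 0.154), and HNF4A, with -0.64 ± 0.23 in females and 0.77 ± 0.26 in males (adjusted p = 0.154). DPT was at -2.30 ± 0.41 in females and -0.47 ± 0.42 in males (adjusted p = 0.394). ITIH5 was at -1.06 ± 0.29 and 0.43 ± 0.30 (adjusted p = 0.260), and SPARC at -1.16 ± 0.33 and 0.18 ± 0.35 (adjusted p = 0.480). In contrast, GPR153 was at -0.29 ± 0.10 in females and -0.27 ± 0.11 in males, and NTN4 at -1.19 ± 0.13 and -1.32 ± 0.15, with interactions of 0.02 ± 0.14 for GPR153 and -0.13 ± 0.20 for NTN4.

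**Figure D5:**
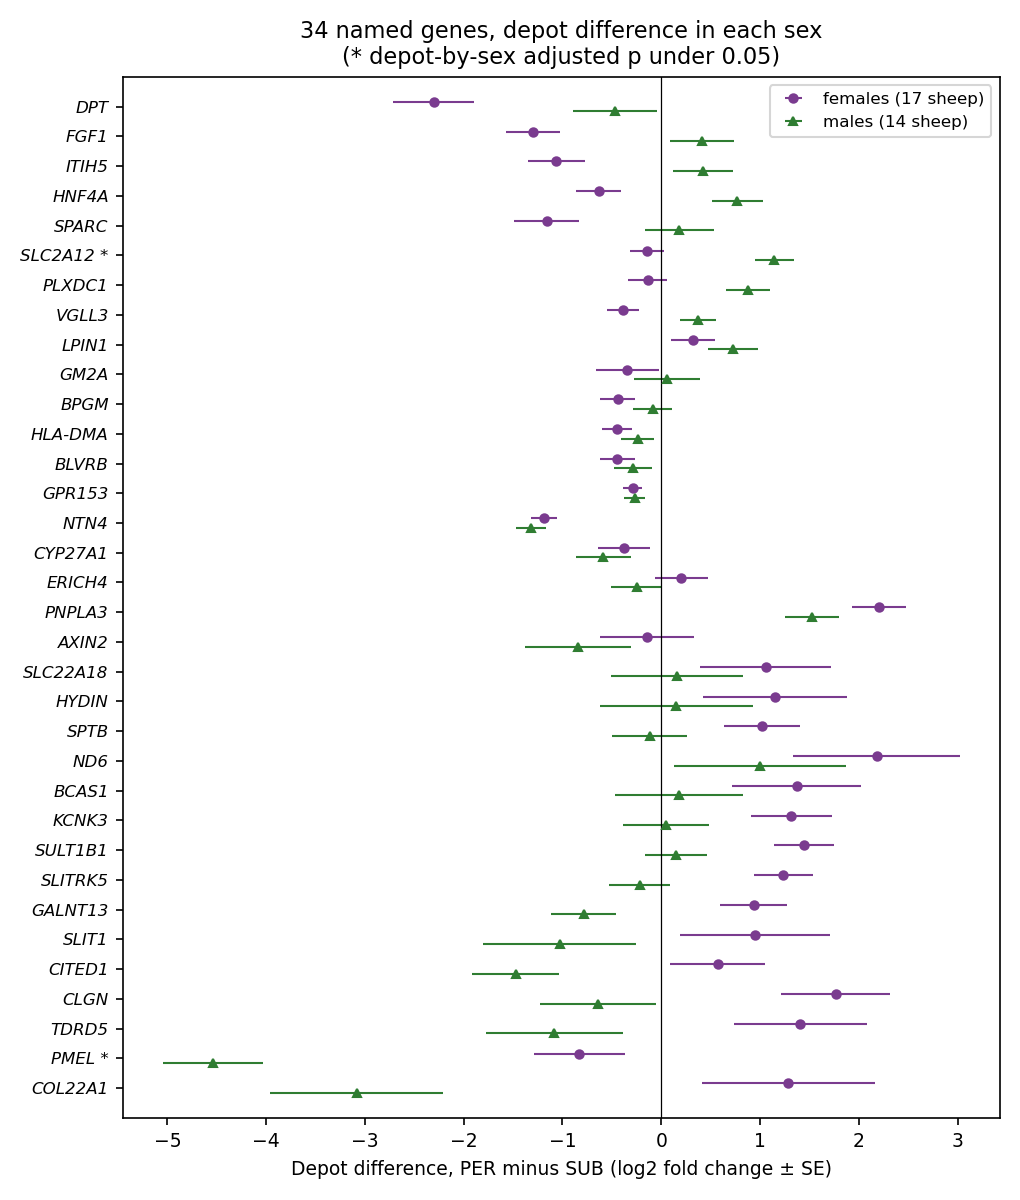
Depot difference, PER minus SUB (x axis, log2 fold change ± SE), of the 34 named genes in 17 females (circles) and 14 males (triangles), sorted by the male minus female difference, with an asterisk at PMEL and SLC2A12, whose interaction passed. PMEL was at -0.83 ± 0.46 in females and -4.54 ± 0.50 in males.

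The depot difference was also compared between the nutrition groups. For prenatal nutrition (NORM, LOW and HIGH, both coefficients together) 0 of 15409 genes passed in edgeR (0%), with 539 at an unadjusted p under 0.05 and a smallest adjusted p of 0.699. DESeq2 called 0 and limma-voom 0. For early postnatal nutrition (HCHF against CONV) 0 genes passed in edgeR (0%), with 1079 at an unadjusted p under 0.05 and a smallest adjusted p of 0.469, while DESeq2 called 2 and limma-voom 141. Among the 34 named genes 3 had an unadjusted p under 0.05 for prenatal nutrition, against 539 of all 15409 genes, the smallest 0.0298 for CITED1. For postnatal nutrition it was 1 of the 34, SULT1B1 at 0.0431, against 1079 of all 15409. A p over the threshold does not show that the depot difference was the same in all nutrition groups.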

How the data were processed

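Total RNA of both depots was depleted of ribosomal RNA and sequenced from directional libraries. Read pairs were trimmed by the authors (Trimmomatic 0.39), cleared of ribosomal sequences (BWA 0.7.17-r1188), aligned with STAR 2.7.3a to Oar_v3.1, a sheep assembly, and counted over exons with HTSeq 0.11.8 (versions per the submitters' processing notes). The deposited values are raw counts per Ensembl gene for each library, without normalization. Classes of reads outside genes were kept out of library sizes and tests. Reads in no gene took 48.3 to 97.6% of the sum of reads in genes, in no gene and ambiguous between genes. Unaligned and multi-mapped reads are not part of that sum. The strand setting of the counting is not given in the sources used here, so that overlapping antisense genes and near-identical copies are uncertain.

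Libraries were grouped by tissue and sheep number in the labels, and the numbers pair the depots because they name the same animal. Deviations from the mean of the same depot and sex correlated between depots of the same sheep with a median r of 0.117 in all pairs and 0.183 in the 26. For different sheep the medians were 0.0255 and -0.00432. The r of the same sheep ranged from -0.727 to 0.550 in all pairs. The library of the same sheep was the best match for 9 PER and 7 SUB libraries of 31. No libraries were identical. The 15409 of 27054 genes that reached 1 cpm in 16 or more of the 62 libraries entered the quasi-likelihood test of edgeR 4.0.16 (R 4.3.3, TMM normalization) with 1 coefficient per sheep and the depot, Benjamini-Hochberg adjustment and a threshold of 0.05. Interactions of depot with sex, prenatal and postnatal nutrition were tested in a further paired model, and differences in each sex were averaged over diets with equal weights. Levels are cpm on TMM library sizes, and standard errors come from the fold change and its F. At the lowest depth 1 cpm is less than 1 count. Library shares were tested with paired permutation tests of 100000 resamples (scipy 1.17.1). Replicates are separate sheep.

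The alternatives were no replicate block, DESeq2 1.42.0, limma-voom with quality weights (limma 3.58.1), DESeq2 size factors, other filters, pairs of at least 2000000 counts, the no-gene share (logit) as a covariate, each sheep left out and, chosen after seeing the data, pairs under 80% of reads in no gene. The fits were checked on simulated counts.

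Genes were named by a rule, namely all genes whose identifier the study pairs with a symbol, and of the others the 2 in each direction with the smallest adjusted p among those at least 2-fold. The study gives 44 identifiers, 34 of them with a symbol, and the reference table (ARS-UI_Ramb_v3.0) matched 0 of the identifiers, so that positions in the genome are not given. Lists of markers of adipocytes, brown and beige adipocytes, macrophages, lymphocytes, endothelium, muscle, mesothelium and kidney, and of other pathways, could therefore not be evaluated, and the labelled tissues were not checked against such markers. Of those lists only DPT, KCNK3, LPIN1, PNPLA3, FGF1, SPARC, COL22A1, ITIH5, NTN4, SLIT1 and, of the kidney list, HNF4A could be read. PMEL of a list for skin and melanocytes, and SPTB and BPGM of a list for red blood cells, could also be read. The sheep, genes and lists were chosen with earlier results of these data known. The columns left unused numbered 0.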

Additional observations from a re-analysis of the deposited data

Results flagged for a closer look

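The difference between depots differed between males and females for 6 genes by the interaction term (edgeR adjusted p under 0.05). For PMEL the difference, male minus female, was -3.71 ± 0.67 on the log2 scale (adjusted p = 0.0215), with SUB higher in 14 of 14 males and 12 of 17 females. For SLC2A12 it was 1.29 ± 0.26 (adjusted p = 0.0474), with PER higher in 14 of 14 males and 6 of 17 females. What part the reads outside genes have in these differences was not tested. In the 20 pairs with at most 80% of reads in no gene 0 genes passed (smallest edgeR adjusted p = 0.0666). That fit holds fewer sheep, and most of those left out were females, so that it cannot decide the question.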

How the results depend on the processing

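Without the replicate block, that is with sex and both diets in the model in place of the sheep, 4715 genes were called, 949 of them at least 2-fold. The pairing thus moved neither count by over 1.5 times, but the genes were not all the same. Of the 4397 calls 4002 were shared, and of the 931 2-fold calls 788 in the same direction. Leaving out each sheep in turn gave 3859 to 5466 genes called, 2008 to 3116 higher in PER, 1674 to 2659 higher in SUB, and 809 to 1200 at least 2-fold, with 502 to 911 higher in PER and 277 to 317 in SUB. The highest count of all calls came without sheep 9 and that of 2-fold calls without sheep 7. Limma-voom with quality weights called 10084 genes, 5193 higher in PER and 4891 in SUB, with 1487 at least 2-fold and 1147 of these higher in PER. It also called 302 genes for depot by sex and 141 for depot by postnatal nutrition. DESeq2 called 58 genes for depot by sex and 2 for depot by postnatal nutrition. A filter at 1 cpm in all libraries, which tested 10969 genes, left 223 genes at least 2-fold, 102 higher in PER and 121 in SUB. Without pairs under 2000000 counts 3074 genes were higher in SUB and 12 passed for depot by sex, and without pairs over 80% of reads in no gene 0 passed. With the no-gene share as a covariate 234 genes were at least 2-fold higher in PER. The share of the 10 highest genes, PER minus SUB, passed its permutation test at -3.02 percentage points without the pairs of low depth, at -2.88 without the pairs over 80%, and at -2.36 for the 100 highest genes. The number of genes at 1 cpm passed at a difference of 880 and of 382 without the same pairs. The cause of these moves was not tested. SLIT1 and TDRD5 reversed to -0.93 and -0.91 with the covariate, and GALNT13 to -0.41 with limma-voom. None of these 3 was called in the 31 pairs with edgeR. The other counts stayed within 1.5 times. Over the 38 named genes and identifiers, no other difference that was called changed sign, 8 calls were lost and 35 gained under the alternatives other than leaving out a sheep, and leaving out a sheep lost 0 calls and gained 30. At low depth, differences in genes near 1 cpm rest on few reads.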

Other observations

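The PER library of sheep 25, which lay lowest of all libraries on the third principal component, had 8300495 gene counts and 68.1% of its reads in no gene, so that it was not among the libraries of low depth. It had the highest PER level of CYP27A1 (600.2 cpm), of GM2A (877 cpm, median 87.6), of BLVRB (35.2 cpm, median 16.2) and of HLA-DMA (17.9 cpm, median 5.44). It had the lowest PER level of PNPLA3 (3.31 cpm, median 55.9) and of LPIN1 (24.99 cpm, median 101).

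Of the 10 identifiers that the study listed without a symbol, 2 differed between the depots in all pairs, 1 in each direction, against 28.5% of all genes. Of the 10, 7 were called in the 26 pairs, 6 of them higher in PER, against 41.9% and 21.9% of all genes. In the 20 pairs 4 were called, against 38.6%, and with the covariate for reads outside genes 4, against 33.1%.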
